A study of Homo sapiens with 6 samples.

Results

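The sgRNAs against the genes that build phosphatidylcholine and its ethanolamine counterpart were followed in a pooled CRISPR knockout screen. The 10 genes were CHKA, CHKB, PCYT1A, PCYT1B, CHPT1, CEPT1, PEMT, ETNK1, ETNK2 and PCYT2, chosen as every listed target symbol equal to one of these names. All 10 were found among the 20664 target symbols of the count table. They held 54 of 106244 targeting sgRNAs, with 4 for PCYT1A, 5 each for PCYT2, CHPT1, CEPT1 and PEMT, and 6 each for the other 5 genes.

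The screen asked which gene losses alter the resistance of triple-negative breast cancer cells to inhibition of EGFR, the epidermal growth factor receptor. Cells were MDA-MB-231, an established human triple-negative breast cancer line, made to express Cas9 by lentiviral transduction and then infected with the GeCKO v2 knockout library. All cells in both groups carried Cas9 and were selected with puromycin for 7 days. The DMSO group (vehicle, 3 libraries) and the erlotinib group (10 µM of this EGFR kinase inhibitor, 3 libraries) were then grown for 7 days, after which the sgRNA cassettes were amplified from genomic DNA and sequenced. The number of reads with a given sgRNA stands for the abundance of sampled cells that carry it. A low count in erlotinib against DMSO is called depletion, whether such cells were lost or fewer cells were sampled. These counts say nothing of how strongly a gene is expressed, so neither the identity of the line nor the loss of any protein could be checked from them.

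Phosphatidylcholine is the main phospholipid of mammalian membranes, and most cells make it through the CDP-choline branch of the Kennedy pathway. Choline kinases phosphorylate choline, the PCYT1 enzymes use CTP to turn phosphocholine into CDP-choline in what is usually the rate-limiting step, and the phosphotransferases join it to diacylglycerol. A parallel branch makes phosphatidylethanolamine from ethanolamine, and PEMT, best known from liver, methylates that lipid to phosphatidylcholine. Raised choline kinase activity and phosphocholine are well known in breast cancer cells.

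The sgRNA sequences of the choline kinases and of the CTP:phosphocholine enzymes PCYT1A and PCYT1B are shown in full, since the comparison between these paralogs rests on which of their sgRNAs were counted. Each is written 5′ to 3′ as 20 bases, with the 12 bases next to the PAM in capitals, the stretch where Cas9 tolerates mismatches least. The PAM itself is not part of the listed sequence. The sgRNAs are numbered in alphabetical order within a gene.
CHKA sgRNA 1: aatacagcAGTTACAATTAC
CHKA sgRNA 2: cataacgcTCTCCAGAACCA
CHKA sgRNA 3: ccgggatgAACTGCTCCAGT
CHKA sgRNA 4: gctcagttACAATCTGCCCT
CHKA sgRNA 5: gctgagaaTTAAATTTACTG
CHKA sgRNA 6: tgcaggtaATATCTTGTTGC
CHKB sgRNA 1: actcgaagTCCACCAGCATG
CHKB sgRNA 2: cagcgaccGCTCCGCAAGTA
CHKB sgRNA 3: ctgggaagACTCCGTACAGC
CHKB sgRNA 4: cttctgccACAATGACATCC
CHKB sgRNA 5: gctcctcgCCAACGCTGGGC
CHKB sgRNA 6: gctcttccGCTGCTCGCTCC
PCYT1A sgRNA 1: attatgatGTGTATGCGAGG
PCYT1A sgRNA 2: gaacatacCAGTGCTCCTTC
PCYT1A sgRNA 3: gagaagtcCCGAGAATTCAT
PCYT1A sgRNA 4: gatattccTTATTCATCTGC
PCYT1B sgRNA 1: cagttggtTTCATCAGCAAA
PCYT1B sgRNA 2: ccatcggcGTATACTCTGAC
PCYT1B sgRNA 3: cctgtcagAGTATACGCCGA
PCYT1B sgRNA 4: cggtgaaaCCTTTGAATTTG
PCYT1B sgRNA 5: tctgagagCTTCGTATCTCT
PCYT1B sgRNA 6: tgaaaaacTGACCATTGCTC

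For the other 6 genes, the sgRNA with the highest mean level in DMSO is shown, and every further sgRNA that had a count in any erlotinib library. CHKB sgRNA 4 also belongs to that last set.
ETNK1 sgRNA 1: aaagccctTAAATTCTTTGT
ETNK1 sgRNA 2: cattgtgtGCATGAATAGCA
ETNK2 sgRNA 2: ccatgctaGCGCTTCACGGA
ETNK2 sgRNA 6: tgaagaacGAGATCAACCCC
PCYT2 sgRNA 3: ctgcagccCCGCGCCCGTTC
CHPT1 sgRNA 4: ggaacaagAGTTTGTTCTTC
CEPT1 sgRNA 2: gcatatatTGCTTGTGCCTG
CEPT1 sgRNA 3: gtttctggAACATTGCGATT
PEMT sgRNA 2: gctctccaGCTTCTTTGCAC
PEMT sgRNA 5: tgaacttcCTGCGCTCGCAC

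Compared base by base in the same orientation, no sgRNA of these genes was close to another in the library. The most similar other listed sgRNA differed at 4 bases for 5 sgRNAs, at 5 bases for 24 and at 6 bases for 25. On this measure paralogs such as CHKA and CHKB shared no near-identical sgRNA. Shifted or reverse-complemented matches were searched only between sgRNAs of the same gene. PCYT1B sgRNA 2 and sgRNA 3 share 17 bases when one is reverse-complemented, so they read overlapping sequence on opposite strands. Their mean levels in DMSO were 0.212 and 17.4 CPM (counts scaled to a common library total). This gap rested on 1 library. In DMSO replicates 1, 2 and 3, sgRNA 2 had 0, 0 and 1 counts and sgRNA 3 had 0, 115 and 0. PEMT sgRNA 3 and sgRNA 5 shared 10 bases in the same manner and had mean levels of 0 and 14.9 CPM. PCYT2 sgRNA 3, with a GC content of 80%, matched the PCYT2 promoter window of RefSeq (GRCh38.p14) on the opposite strand, at positions −172 to −153 from the annotated start of the gene. No other sgRNA of the 10 genes matched the window of its own gene, which runs from 250 bases before to 50 bases after the start.

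The DMSO libraries held 4263494, 2205882 and 1574743 counts, and the erlotinib libraries 2026862, 1773235 and 3332895, each in the order of replicates 1, 2 and 3 that is kept throughout. A floor of 3 counts, the limit that a count of 0 allows, came to 0.704 to 1.91 CPM in DMSO and 0.900 to 1.69 CPM in erlotinib libraries, for counting error only. Of the sgRNAs counted in a DMSO library, 40.2% to 47.1% were also counted in another given DMSO library. That is little above the 33.4% to 39.1% of all targeting sgRNAs that a DMSO library counted at all. The same share between erlotinib libraries was 3.71% to 18%, beside 1.77% to 2.05% counted at all. Over targeting sgRNAs with a count in any library, log2(CPM + 1) correlated at −0.111 to −0.0901 between DMSO libraries. Between erlotinib libraries the correlations were 0.00652 to 0.0323. The labels do not say that replicates came from separate cultures, so the spread between them may be technical. Every DMSO library carries one reverse primer and every erlotinib library another, and the condition and this primer cannot be told apart.

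Fewer sgRNAs of the phosphatidylcholine genes were counted in each erlotinib library than in any DMSO library, and the same held for the other kinds of sgRNA. Of the 54 sgRNAs, DMSO libraries showed 22, 13 and 19 with at least 1 count, against 1, 2 and 2 in erlotinib. The groups did not overlap, with 18 ± 4.58 detected sgRNAs in DMSO and 1.67 ± 0.577 in erlotinib (SD, n = 3 libraries each; exact two-sided permutation test, p = 0.1, the smallest p that 3 against 3 libraries allow). As a share of the listed sgRNAs this was 33.3% ± 8.49 against 3.09% ± 1.07 (SD, n = 3 each). Over all 100362 sgRNAs against protein-coding genes, the shares were 35.7% ± 3.02 and 1.95% ± 0.143. Even the 993 non-targeting sgRNAs, which have no target in the genome, went from 56.9% ± 4.4 to 3.93% ± 0.504. sgRNAs against olfactory receptors, which are genes with no known role in breast cells, went from 38.1% ± 2.83 to 2.11% ± 0.260. Lower detection was therefore shared with sgRNAs that cut nothing or cut genes without a role. Loss of cells under treatment and sampling of fewer cells cannot be told apart in these counts.

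**Figure D1:**
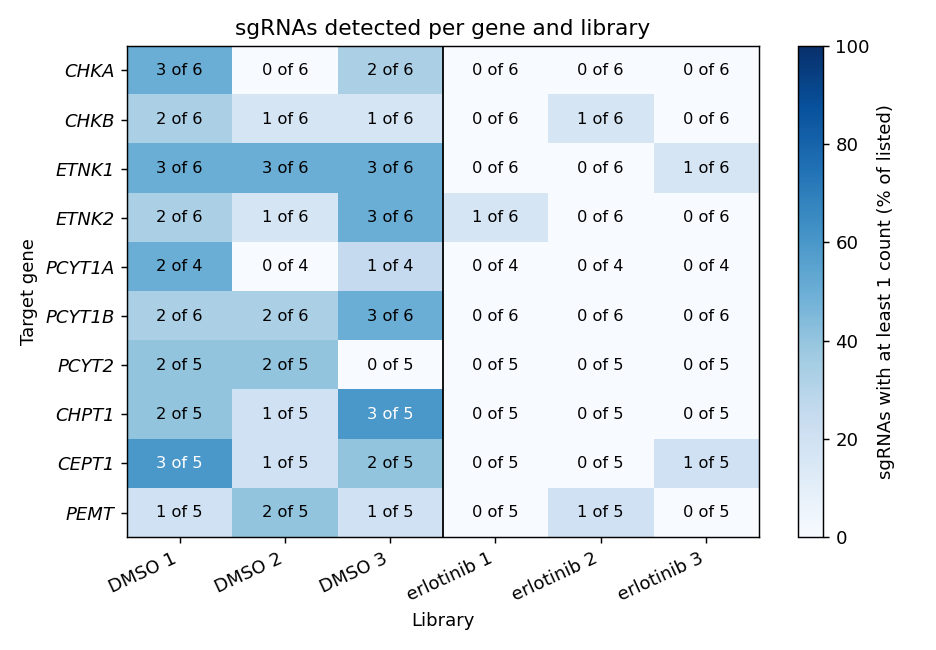
Number of sgRNAs with at least 1 count per target gene (rows) and library (columns), with shading for the percentage of the gene's listed sgRNAs. DMSO libraries detected 22, 13 and 19 of the 54 sgRNAs in all, and erlotinib libraries 1, 2 and 2.

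Over the 3 DMSO libraries together, 33 of the 54 sgRNAs were detected (61.1%, 95% Wilson interval 47.8 to 73.0%, counting error only), beside 69.0% of all protein-coding sgRNAs. The detected sgRNAs were mostly seen in part of the libraries. Of the 54, 15 (27.8%) had a count in 1 DMSO library, 15 (27.8%) in 2 and 3 (5.56%) in all 3, while 21 (38.9%) had none. Over all protein-coding sgRNAs these shares were 38.5%, 23.1%, 7.5% and 31.0%. The 3 sgRNAs seen in all DMSO libraries were ETNK1 sgRNA 1, ETNK1 sgRNA 3 and PCYT1B sgRNA 6. sgRNAs with more than 60% GC were seen in DMSO in 3 of 9 cases (33.3%), against 30 of 45 (66.7%) of the others. Over all protein-coding sgRNAs the same split gave 66.5% and 69.6%.

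The choline kinases had the lowest mean DMSO levels per listed sgRNA of the 10 genes, with overlapping spreads, although not in every library. CHKA, the choline kinase most studied in tumor cells, had DMSO counts of 171, 0 and 29 and no count in any erlotinib library. The DMSO counts equal 40.1, 0 and 18.4 CPM, a mean of 19.5 ± 20.1 CPM (SD, n = 3), so the vehicle libraries already differed from each other by as much as their mean. Of the 6 CHKA sgRNAs, sgRNA 4 gave 96 counts in replicate 1 and 10 in replicate 3, sgRNA 1 and sgRNA 3 gave 38 and 37 counts in replicate 1, and sgRNA 6 gave 19 in replicate 3. sgRNA 2 and sgRNA 5 were at 0 in every library. No CHKA sgRNA was therefore counted in DMSO replicate 2, where CHKA looked as it did after erlotinib.

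CHKB, the second choline kinase, had 215, 36 and 6 counts in DMSO, or 50.4, 16.3 and 3.81 CPM (mean 23.5 ± 24.1, SD, n = 3). In erlotinib it had 0, 28 and 0 counts, a level of 15.8 CPM in replicate 2 that lay within the DMSO range. All CHKB counts came from a pair of its 6 sgRNAs. sgRNA 4 gave 185 counts in DMSO replicate 1, 6 in DMSO replicate 3 and the 28 counts in erlotinib, and sgRNA 2 gave 30 and 36 counts in DMSO replicates 1 and 2. The 4 uncounted CHKB sgRNAs include the most GC-rich of the gene, at 75% and 70% GC.

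PCYT1A, the widely expressed maker of CDP-choline and the usual rate-limiting enzyme, had 356, 0 and 16 counts in DMSO and 0 counts in each erlotinib library. Its DMSO level was 83.5, 0 and 10.2 CPM, a mean of 31.2 ± 45.6 CPM (SD, n = 3), so DMSO replicate 1 carried most of it. A single sgRNA, PCYT1A sgRNA 2, supplied 286 counts in replicate 1 and all 16 in replicate 3. PCYT1A sgRNA 4 gave the other 70 counts in replicate 1, and sgRNA 1 and sgRNA 3 were at 0 throughout. As for CHKA, DMSO replicate 2 held no count for the gene.

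PCYT1B, the paralog known from brain and gonads, was the more evenly represented, with 99, 163 and 149 counts in DMSO and 0 in each erlotinib library. These are 23.2, 73.9 and 94.6 CPM, a mean of 63.9 ± 36.7 CPM (SD, n = 3). PCYT1B sgRNA 6 was present in all DMSO libraries with 31, 48 and 130 counts. sgRNA 5 gave 68 and 18 counts in replicates 1 and 3, sgRNA 3 gave 115 counts in replicate 2, sgRNA 2 gave 1 count in replicate 3, and sgRNA 1 and sgRNA 4 were never counted. Every erlotinib library thus lay below every DMSO library for PCYT1B, which was not so for PCYT1A.

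CHPT1 and CEPT1, the phosphotransferases of the last step, had similar numbers of sgRNAs detected in DMSO, 4 of 5 each. CHPT1 uses CDP-choline and had 130, 119 and 46 counts in DMSO (30.5, 53.9 and 29.2 CPM, mean 37.9 ± 13.9, SD, n = 3) and none in erlotinib. CHPT1 sgRNA 4 led with 0, 119 and 23 counts. CEPT1, which accepts both CDP-choline and CDP-ethanolamine, had 441, 128 and 73 counts in DMSO (103, 58.0 and 46.4 CPM, mean 69.3 ± 30.2). In erlotinib it had 0, 0 and 742 counts, and the 223 CPM of replicate 3 were above every DMSO library. All of those 742 counts came from CEPT1 sgRNA 3, which had 231, 0 and 6 counts in DMSO, while CEPT1 sgRNA 2, at 116, 128 and 0 counts in DMSO, was absent from erlotinib.

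PEMT, the methyltransferase that bypasses choline, had 105, 81 and 5 counts in DMSO (24.6, 36.7 and 3.18 CPM, mean 21.5 ± 17.0, SD, n = 3). Erlotinib replicate 2 held 77 counts, or 43.4 CPM, and the other erlotinib libraries none, so the groups overlapped. These counts belonged to PEMT sgRNA 2, which had 0, 37 and 5 counts in DMSO. PEMT sgRNA 5, with 105, 44 and 0 counts in DMSO, was not seen in erlotinib, and the 3 remaining PEMT sgRNAs had no count anywhere.

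Both kinases of the ethanolamine branch were counted in every DMSO library. ETNK1, an ethanolamine kinase, had 340, 205 and 117 counts, or 79.7, 92.9 and 74.3 CPM (mean 82.3 ± 9.58, SD, n = 3), the steadiest level of the 10 genes relative to its mean. In erlotinib it had 0, 0 and 189 counts, and the 56.7 CPM of replicate 3 were still below every DMSO library. The 189 counts came from ETNK1 sgRNA 2, which had 0 counts in all 3 DMSO libraries, whereas ETNK1 sgRNA 1, at 125, 82 and 24 counts in DMSO, was at 0. The ETNK1 cells counted under each condition therefore carried different sgRNAs.

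ETNK2, the second ethanolamine kinase, had 219, 115 and 59 counts in DMSO (51.4, 52.1 and 37.5 CPM, mean 47.0 ± 8.26, SD, n = 3). In erlotinib it had 5659, 0 and 0 counts, and the 2792 CPM of replicate 1 were the highest value of any of the 10 genes in any library. All 5659 counts were from ETNK2 sgRNA 2, which had 68, 0 and 0 counts in DMSO. It ranked 84th among sgRNAs of that library and made up 0.279% of its counts. ETNK2 sgRNA 6, with 151, 115 and 0 counts in DMSO, was at 0 in erlotinib. PCYT2, which makes CDP-ethanolamine, had 137, 80 and 0 counts in DMSO (32.1, 36.3 and 0 CPM, mean 22.8 ± 19.9) and none in erlotinib, with PCYT2 sgRNA 3 giving 77, 55 and 0 of them.

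Only 5 of the 54 sgRNAs had any count after erlotinib (9.26%, 95% Wilson interval 4.02 to 19.9%), beside 5.34% of all protein-coding sgRNAs. Each was counted in a single erlotinib library, and none of the 10 genes had more than 1 of its sgRNAs there, beside 610 of 18888 protein-coding symbols that did. Within their libraries, ordered by counts, CEPT1 sgRNA 3 ranked 797, PEMT sgRNA 2 ranked 1287, ETNK1 sgRNA 2 ranked 1331 and CHKB sgRNA 4 ranked 1583. At the level of genes, 5 of 10 had an erlotinib count, beside 24.9% of protein-coding symbols. These 5 were CHKB, CEPT1, PEMT, ETNK1 and ETNK2, and the 5 at 0 were CHKA, PCYT1A, PCYT1B, CHPT1 and PCYT2.

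**Figure D2:**
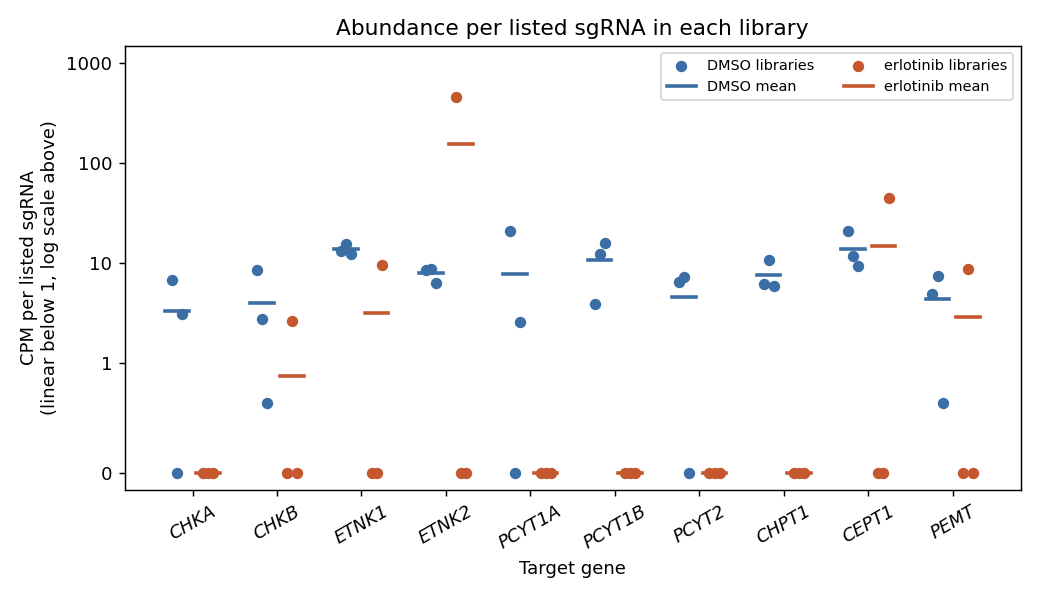
CPM per listed sgRNA of each gene in every library (points) with the mean of the 3 libraries of a condition (bars), on an axis that is linear below 1 and logarithmic above. Erlotinib points lie at 0 except for 1 library each of CHKB, ETNK1, ETNK2, CEPT1 and PEMT.

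Dividing by the number of listed sgRNAs put the genes on a common scale. In DMSO the order was CEPT1 with 13.9 ± 6.03 CPM per listed sgRNA (SD, n = 3), ETNK1 with 13.7 ± 1.60, PCYT1B with 10.7 ± 6.12, ETNK2 with 7.83 ± 1.38, PCYT1A with 7.81 ± 11.4 and CHPT1 with 7.58 ± 2.79. Then came PCYT2 with 4.56 ± 3.97, PEMT with 4.30 ± 3.40, CHKB with 3.92 ± 4.02 and CHKA with 3.25 ± 3.35. Each neighbouring pair differed by less than the SD of at least 1 of its members. Among 18888 protein-coding symbols, CEPT1 and ETNK1 stood at percentiles 83.4 and 82.9 of this level and CHKA at 9.99. The median of the 10 genes, 7.69 CPM per listed sgRNA, lay near the 8.49 of all protein-coding symbols. These are levels after 7 days of vehicle, and with no library from before treatment analysed here, library make-up and growth cannot be told apart.

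CHKA and PCYT1A were then set against their paralogs within each library, on the scale of log2(CPM per listed sgRNA + 1). The difference CHKA minus CHKB was −0.29, −1.90 and 1.32 in DMSO, a mean of −0.29 ± 1.61 (SD), and 0, −1.86 and 0 in erlotinib. Its sign varied among the DMSO libraries. PCYT1A minus PCYT1B was 2.17, −3.73 and −2.24 in DMSO, a mean of −1.27 ± 3.07, and 0 in each erlotinib library, where both genes had no counts. The sign of this difference also varied, with PCYT1A higher in replicate 1 and PCYT1B in the others. Against PCYT2, its counterpart in the ethanolamine branch, PCYT1A differed by 1.56, −3.04 and 1.82 in DMSO (mean 0.11 ± 2.74), and both were at 0 in erlotinib.

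Of the other pairs, ETNK1 was above ETNK2 in all 3 DMSO libraries, by 0.58, 0.77 and 0.89 (mean 0.74 ± 0.15). CHPT1 minus CEPT1 was negative in all 3, at −1.61, −0.10 and −0.59 (mean −0.76 ± 0.77, or −0.34 without DMSO replicate 1). The exact two-sided sign-flip permutation test over the 3 DMSO libraries cannot give a p under 0.25. It gave 0.25 for these 2 pairs, 0.5 for PCYT1A and PCYT1B, 0.75 for CHKA and CHKB and 1 for PCYT1A and PCYT2, with adjusted p over the 5 pairs of 0.625 to 1. In erlotinib ETNK1 minus ETNK2 was −8.86, 0 and 3.39, and CHPT1 minus CEPT1 was 0, 0 and −5.51.

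Whether paralogs responded differently was tested as the change of these differences from DMSO to erlotinib. It was −0.33 for CHKA minus CHKB (exact two-sided permutation test over libraries, p = 1), 1.27 for PCYT1A minus PCYT1B (p = 0.4) and −0.11 for PCYT1A minus PCYT2 (p = 1). It was −1.07 for CHPT1 minus CEPT1 (p = 1) and −2.57 for ETNK1 minus ETNK2 (p = 0.7, same exact test). Every adjusted p over the 5 pairs was 1, and 0.1 was the smallest raw p possible. No difference in response between paralogs was larger than the spread between libraries, which at this spread does not show that they respond alike. For PCYT1A with PCYT1B and with PCYT2 the erlotinib values are all 0, so the change only mirrors the DMSO difference. Leaving out erlotinib replicate 1 turned the ETNK1 minus ETNK2 value to 0.95, leaving out erlotinib replicate 3 turned CHPT1 minus CEPT1 to 0.76, and leaving out erlotinib replicate 2 turned CHKA minus CHKB to 0.29. CHKA minus CHKB was 0.47 without DMSO replicate 3, and PCYT1A minus PCYT2 was 0.61 and 0.74 without DMSO replicates 1 and 3. PCYT1A minus PCYT1B kept its sign but was 2.99, 0.04 and 0.78 without DMSO replicates 1, 2 and 3, with the same sizes and opposite sign for its DMSO difference.

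**Figure D3:**
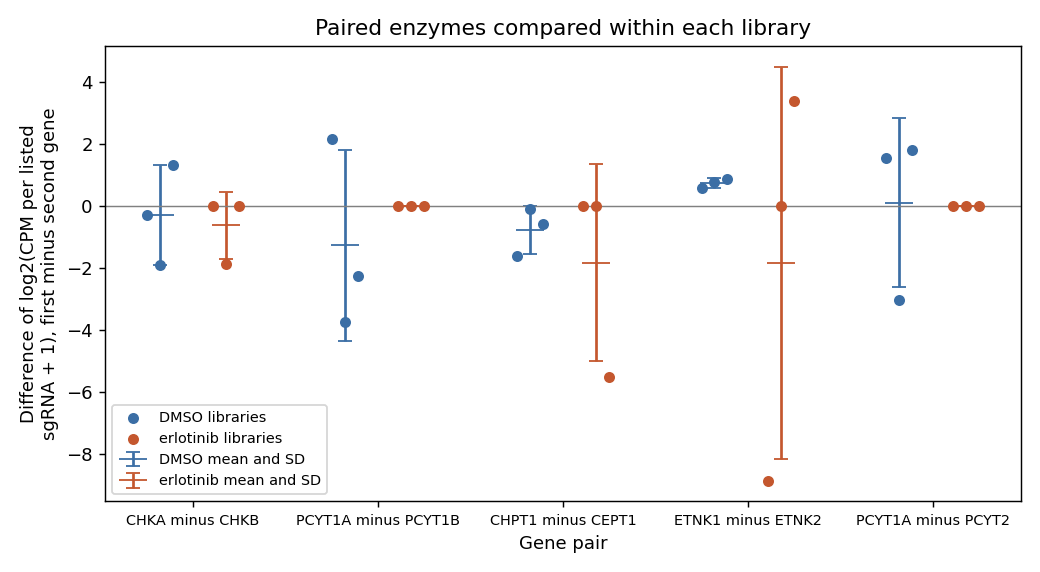
Difference in log2(CPM per listed sgRNA + 1) between paired enzymes in each library (points), with the mean and SD over the 3 libraries of a condition (lines). DMSO points of CHKA minus CHKB, PCYT1A minus PCYT1B and PCYT1A minus PCYT2 fall on both sides of 0, and ETNK1 exceeded ETNK2 in all 3 DMSO libraries.

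Counts summed over the sgRNAs of a symbol were tested across all 20409 symbols with a count. In erlotinib 5 of the 10 genes were depleted and none was enriched (edgeR quasi-likelihood test, adjusted p under 0.05), beside 69.2% of all symbols depleted and 0% enriched. The same 5 had an unadjusted p under 0.05, beside 73.0% of all symbols, and none was enriched at that level. edgeR's likelihood ratio test, adjusted, called the same 5, beside 75.7% of symbols depleted and 0.0147% enriched, and at its unadjusted p none was enriched, beside 0.0196%. The depleted genes were PCYT1B (adjusted p = 0.00385, at least 47.1-fold lower), CHPT1 (0.00393, at least 27.9-fold), PCYT2 (0.0359, at least 16.8-fold), PCYT1A (0.0373, at least 23.0-fold) and CHKA (0.0426, at least 14.4-fold). Each bound is the mean DMSO CPM over the mean erlotinib floor of 3 counts per library, 1.36 CPM. The bounds of PCYT1A and CHKA rested on DMSO replicate 1, without which they were 3.74-fold and 6.78-fold. Leaving out the DMSO library where each gene was at 0 gave 34.5-fold for PCYT1A, 21.6-fold for CHKA and 25.2-fold for PCYT2. For PCYT2, 77, 55 and 0 of its 137, 80 and 0 DMSO counts came from sgRNA 3, which matched the promoter window. Whether that sgRNA cuts coding sequence was not tested. Ordered by p, PCYT1B ranked 2878, PCYT1A 13033 and CHKA 13594 of the 20409 symbols, so many symbols stood before them. The paper had put CHKA among its top depleted genes from these same libraries, so its call here is not independent evidence. The rank of 13594 comes from a quasi-likelihood test on counts summed per symbol, with every symbol that had a count kept. The paper describes likelihood ratio tests on sgRNA counts after a filter on the median count. The placings are therefore on unlike measures, and a ranking by the paper's procedure was not attempted here.

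The 5 other genes did not pass the test. The log2 fold change was −4.98 ± 2.56 (SE) for ETNK1 with adjusted p = 0.120, −4.97 ± 2.75 for CHKB with 0.142, −3.35 ± 2.74 for PEMT with 0.306 and −2.80 ± 2.60 for CEPT1 with 0.365 (edgeR quasi-likelihood). ETNK2 had the only positive value, 1.5 ± 3.17, with adjusted p = 0.693 (same test). Each SE was back-calculated from the test, as the absolute log2 fold change over the square root of its F statistic. The median over the 10 genes was −7.79 beside −11.28 over all symbols, a median that itself moved to −9.32 when libraries were scaled by their totals alone. With that scaling and with scaling by non-targeting sgRNAs, the values were 0.10 and 0.21 for CEPT1, −0.57 and −0.86 for PEMT, −2.16 and −2.47 for CHKB, −2.12 and −2.01 for ETNK1, and 4.33 and 3.31 for ETNK2.

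Passing the test went with having no erlotinib count at all. All 5 genes at 0 in erlotinib were called and none of the 5 with a count was, and over all symbols 87.0% of those at 0 were called against 13.8% of those with a count. Every erlotinib library lay below every DMSO library for 3 of the 10 genes, CHPT1, PCYT1B and ETNK1, beside 56.7% of all symbols.

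Scaling and single libraries set most of these calls. CHKA did not pass with TMM scaling (adjusted p = 0.0511, edgeR quasi-likelihood), library totals (0.0609) or non-targeting scaling (0.0573), PCYT1A did not with the latter pair (0.0542 and 0.0514), nor PCYT2 with library totals (0.0520), while DESeq2's Wald test also called CHKB (0.0287). CHKA and PCYT1A kept an adjusted p under 0.05 in the edgeR quasi-likelihood test only when DMSO replicate 2, where both were at 0, was the library left out (0.0161 and 0.0160). Without DMSO replicate 1 the values were 0.134 and 0.170, without DMSO replicate 3 they were 0.0959 and 0.0789, and without erlotinib replicate 1, 2 or 3 they were 0.0657, 0.0635 and 0.0664 for CHKA and 0.0546, 0.0523 and 0.0547 for PCYT1A. PCYT2 was likewise called only without DMSO replicate 3, where it was at 0 (0.0130), with 0.0910 and 0.0920 without DMSO replicates 1 and 2 and 0.0547, 0.0528 and 0.0552 without erlotinib replicates 1 to 3. PCYT1B and CHPT1 were called whichever library was left out. Conversely, each gene with an erlotinib count passed once the library that held it was left out. CHKB and PEMT then had adjusted p = 0.0247 and 0.0276 without erlotinib replicate 2, ETNK1 and CEPT1 had 0.00508 each without erlotinib replicate 3, and ETNK2 had 0.00515 without erlotinib replicate 1, with its log2 fold change at −11.71.

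At the level of single sgRNAs, 34 of the 54 could be tested and 20 had no count in any library. None was depleted or enriched after adjustment over all 74555 tested sgRNAs (edgeR quasi-likelihood, smallest adjusted p = 0.0998), and 0% of all sgRNAs passed. At an unadjusted p under 0.05, 11 of the 34 were depleted, beside 31.2% of all tested sgRNAs, and none was enriched, beside 0.699%. The likelihood ratio test called the same 11, beside 36.6% depleted, and none enriched, beside 0.840%. They comprised 3 sgRNAs of ETNK1, both PCYT1B sgRNA 3 and PCYT1B sgRNA 6, and 1 each of CEPT1, CHPT1, ETNK2, PCYT1A, PCYT2 and PEMT, the PCYT1A member being sgRNA 2. No sgRNA of CHKA or CHKB reached that level. The share of about 1 in 3 sgRNAs was thus close to that of the whole library. Without DMSO replicate 2, 4 of 32 tested sgRNAs were depleted after adjustment, beside 19.3% of all tested, and without DMSO replicate 3, 7 of 27 were, beside 22.9%.

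Other symbols had nearly the same values as CHKA and PCYT1A in every library. Among 10107 other symbols with the same number of sgRNAs, those nearest to CHKA by Euclidean distance of log2(CPM + 1) over the 6 libraries were C11orf85 (distance 0.0464), TMEM154 (0.107) and PPP1R7 (0.162). C11orf85 had 40.1, 0 and 19.1 CPM in DMSO and 0 in erlotinib. Among 1873 symbols with as many sgRNAs as PCYT1A, the nearest were NPY4R (0.0958), C13orf35 (0.112) and TRIM48 (0.269).

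Genes that feed or use phosphatidylcholine outside these 10 were called about as often as symbols in general. Of 33 such listed genes with 184 sgRNAs, 24 were depleted, none enriched and 9 did not pass (edgeR quasi-likelihood, adjusted over all symbols), beside 69.2% of all symbols depleted, with a median log2 fold change of −11.48. As for the 10 synthesis genes, all 24 had no erlotinib count and the 9 others did. The subgroup counts that follow are descriptions of few genes each, to be read against that 69.2%, or against the 87.0% depleted among symbols with no erlotinib count. All 10 choline transporter genes, none with an erlotinib count, were depleted, FLVCR1, a plasma membrane choline carrier, with the smallest p (adjusted p = 0.00385, at least 53.5-fold lower). Of the lipins, which make diacylglycerol, LPIN1 (0.00385, at least 46.2-fold) and LPIN2 passed. LPIN3 had 0, 3673 and 1 counts in erlotinib. Its log2 fold change was 2.38 ± 2.97 (SE back-calculated as for the synthesis genes, adjusted p = 0.501, edgeR quasi-likelihood).

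In the serine and ethanolamine lipid group, 3 of 5 genes were depleted, led by the phosphatase PHOSPHO1 (adjusted p = 0.00386, edgeR quasi-likelihood, at least 76.0-fold lower). Those that did not pass were EPT1, an ethanolamine phosphotransferase, with 443 counts in erlotinib replicate 2, and PTDSS2, a phosphatidylserine synthase, with 428 in replicate 3. Among genes of turnover and remodelling 6 of 9 passed, led by LPCAT4 (0.00385, at least 36.8-fold lower), while its fellow lysophospholipid acyltransferases LPCAT1, LPCAT2 and LPCAT3 had 677, 2713 and 105 counts in a single erlotinib library each. Neither sphingomyelin synthase passed: SGMS1 had 498 counts in erlotinib replicate 2, and SGMS2 had 40 and 126 in replicates 2 and 3. Of 4 choline oxidation genes 3 passed, led by the choline dehydrogenase CHDH (0.00385, at least 69.9-fold lower), and ALDH7A1 had 222 and 112 counts in erlotinib replicates 1 and 3. SGMS2 and ALDH7A1 were the pathway genes with more than 1 sgRNA counted after erlotinib.

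**Figure D4:**
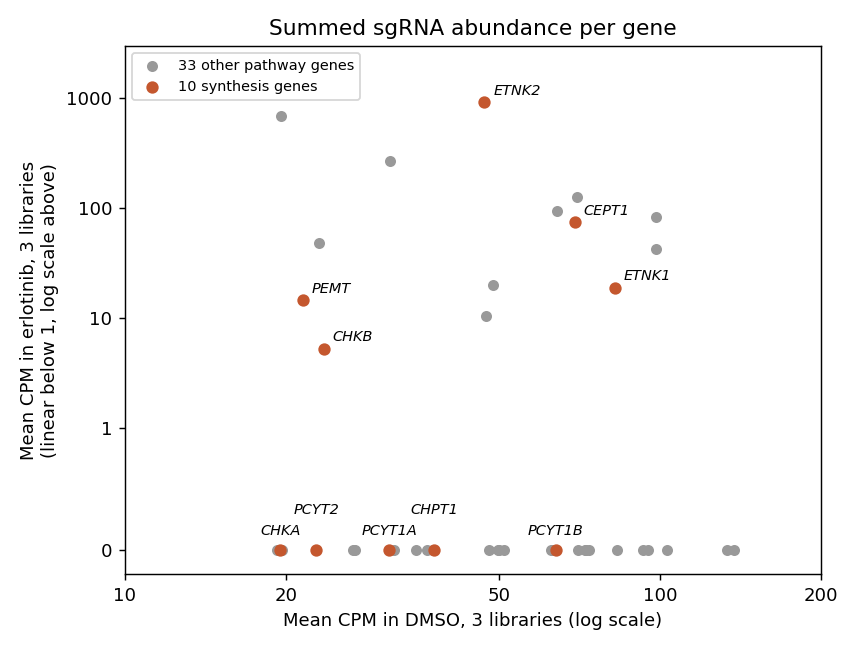
Mean CPM of the summed sgRNA counts of each gene in 3 erlotinib libraries against the mean in 3 DMSO libraries, for the 10 synthesis genes (labelled) and 33 further pathway genes, on a logarithmic x axis and a y axis that is linear below 1. CHKA, PCYT1A, PCYT1B, CHPT1 and PCYT2 lie at 0 in erlotinib together with 24 of the 33 other genes, and ETNK2 has a mean of 931 CPM.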

How the data were processed

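Genomic DNA of MDA-MB-231-Cas9 cells gave 3 DMSO and 3 erlotinib libraries. The authors deposited a table of raw counts per sgRNA of 20 bases and library, with no normalization. The counting program was not given in the sources used here. Groups and replicate numbers came from the sample titles. Some label fields name RNA, mice and other cells, and the described knockout screen was followed.

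Non-targeting sgRNAs were left out of tests, and sgRNAs or symbols with any count were kept. edgeR 4.0.16 (R 4.3.3) quasi-likelihood tests used upper-quartile normalization (quantile 0.99, the methods' setting) and Benjamini-Hochberg adjustment at 0.05 on sgRNAs and on counts summed per symbol. The likelihood ratio test, named in the methods, and DESeq2 1.42.0 were alternatives. So was a filter on the median count per library, which the methods also describe. CPM used library totals, and log2 values a pseudocount of 1. Scripts were tested on simulated data, with pass limits set only where counts varied far less than here. The common dispersion, a measure of that variation, was 9.74 for sgRNAs and 3.10 for symbols. Error rates of the tests in these data are therefore not known from the simulation. Paralogs were compared with exact permutation tests (scipy 1.17.1). Intervals (95%) and floors cover counting error only. sgRNAs were matched to RefSeq promoter windows (GRCh38.p14) only, and no genome was used, so no chromosome coordinates are given.

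Members, lists and naming rules (all 10 genes, sgRNAs as shown, pathway genes with an erlotinib count or the smallest p per subgroup, the 3 nearest symbols) were chosen with earlier results of these data known.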

Additional observations from a re-analysis of the deposited data

How the results depend on the processing

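Leaving out libraries moved the number of depleted genes from 5 to between 2 and 4 (2 without DMSO replicate 1, 3 without DMSO replicate 3 or erlotinib replicate 1, beside 56.6% to 67.1% of all symbols), and that of depleted sgRNAs from 0 to between 0 and 7. Depleted genes numbered 2 with library totals (beside 61.1% of all symbols), 3 with non-targeting scaling (62.9%), 2 of 7 tested with filterByExpr (72.2%) and 1 of 5 tested with counts above the median in at least 2 libraries (67.7%). Depleted sgRNAs numbered 1 of 34 in DESeq2's Wald test (beside 3.49% of all sgRNAs), 3 of 3 with filterByExpr (75.8%), 10 of 19 with the median filter (65.1%) and 11 of 34 at the likelihood ratio test's unadjusted p (36.6%). Same-numbered DMSO and erlotinib libraries did not deviate together (correlations −0.00356 to 0.00383). With few sgRNAs counted in any erlotinib library, this cannot show whether they were paired. Same-numbered libraries also carry the same forward primer. The main tests treated libraries as unpaired. With the replicate number as a block, 0 genes and 0 sgRNAs were called (edgeR quasi-likelihood), the smallest adjusted p among the 10 genes being 0.173. The log2 fold change of ETNK2 was −9.58 with the replicate block and −11.71 to 2.09 when libraries were left out, and that of CEPT1 was 0.10 with library totals and 0.21 with non-targeting scaling. The response difference ranged from −1.13 to 0.47 for CHKA minus CHKB, −1.99 to 0.76 for CHPT1 minus CEPT1, −5.18 to 0.95 for ETNK1 minus ETNK2 and −1.69 to 0.74 for PCYT1A minus PCYT2 when libraries were left out. Over sgRNAs with a count it was 0.11 for CHKA minus CHKB and 0.11 for PCYT1A minus PCYT2. The response difference of PCYT1A minus PCYT1B was 0.04 to 2.99. The DMSO difference ranged from −1.10 to −0.34 for CHPT1 minus CEPT1, from −1.09 to 0.51 for CHKA minus CHKB, which was 0.16 as a mean of logs, and from −0.74 to 1.69 for PCYT1A minus PCYT2, which was −0.11 over sgRNAs with a count. The cause of these shifts was not tested. The fall in detected sgRNAs kept its direction under all 9 alternatives, with differences of −18.8 to −14.3 sgRNAs when libraries were left out. The quasi-likelihood variant with legacy turned off was added after seeing the data. At the depth of the shallowest library the expected numbers of detected sgRNAs gave the same difference, −16.3.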
